A study of Mus musculus with 16 samples.

Results

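The genes described here are 10 genes of cardiac and smooth muscle: the actins Actc1 and Acta2, the actin-binding proteins Tagln and Cnn1, the myosin light chains Myl7, Myl4 and Myl9, the troponins Tnnt2 and Tnnc1, and the cardiac transcription factor Nkx2-5. They are 10 of the 37203 genes and unnamed targets on the array. They were chosen for their levels in these arrays, namely the difference between Sp1-/- and Sp1+/+ cells in Flk1+ cells and in progenitors and the turn of its sign between both. Those differences are therefore given as a description with no test, and tests are kept for HE1, for HE2 and for other muscle genes. Each gene was read by a single probe, and all 10 passed the minimum intensity.

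Actin and myosin form the sliding filaments of the contractile apparatus. In striated muscle, troponin on the thin filament makes contraction depend on calcium, whereas smooth muscle relies on phosphorylation of the regulatory myosin light chain and on proteins such as calponin. Many of these genes are known targets of serum response factor (SRF), which binds a DNA element called the CArG box. Cardiac, smooth muscle, endothelial and blood cells can all arise from mesoderm that expresses the receptor Flk1, and the hemogenic endothelium is the endothelium from which blood cells emerge.

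The cells were differentiated from mouse ES cells, for which the labels name C57BL/6 as the strain. Sp1+/+ cells are the E14 wild type line, and Sp1-/- cells are a single knock-out clone whose mutated locus still makes a truncated Sp1 protein without its DNA-binding domain. Both lines were kept on embryonic fibroblasts and then passaged without feeder cells before differentiation. Flk1+ cells were isolated from embryoid bodies on magnetic columns. They were then placed in blast culture, whose floating and adherent cells were pooled and sorted into the earlier hemogenic endothelium (HE1, KIT+ CD41- Tie2+), the later hemogenic endothelium (HE2, KIT+ CD41+ Tie2+) and progenitors (KIT+ CD41+ Tie2-). The 8 groups, 4 populations of 2 genotypes, had 2 one-color arrays apiece, 16 in all. The record calls the replicates independent and biological, and the Results of the study call them biological. A legend of the study, however, speaks of averaged technical replicates. The p-values therefore measure only the spread between these arrays. A single slide carried the Sp1+/+ arrays and a different one the Sp1-/- arrays, so an effect of the slide and one of the genotype cannot be told apart.

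In the mouse assembly GRCm38.p6, Actc1 lies at chr2:114047282-114052875, Acta2 at chr19:34240336-34255585, Tagln at chr9:45929628-45936058, Cnn1 at chr9:22099221-22109221 and Myl7 at chr11:5896637-5898782. Myl4 lies at chr11:104546017-104587215, Myl9 at chr2:156775408-156781657, Tnnt2 at chr1:135836315-135852268, Tnnc1 at chr14:31208312-31211729 and Nkx2-5 at chr17:26838664-26844988. RefSeq windows of 300 bases around a transcription start (250 before it and 50 after it) were at hand for 9 of the 10 genes. They were searched on both strands for the CArG box in its strict form, a CC and a GG with only A or T between them at the usual spacing, and for the GC box to which Sp1 binds, spelled GGGCGG. On the opposite strand it reads CCGCCC. No mismatch was allowed, and looser forms were not searched. The strict CArG box was found in the windows of 3 genes, Actc1, Myl7 and Myl9, and 1.63% of all 32851 windows hold it. The GC box was found only in the window of Myl9, at 3 places, while 35.7% of all windows hold it. The windows of these 3 genes are shown, with those of Acta2 and Cnn1, which had the largest difference in progenitors together with Tagln and held no exact match to either motif. Capitals mark the CArG box in Actc1 and Myl7 and both motifs in Myl9, which do not overlap there, and each window reads 5′ to 3′ on the strand of the gene.
Actc1 (chr2:114052826-114053125, minus strand): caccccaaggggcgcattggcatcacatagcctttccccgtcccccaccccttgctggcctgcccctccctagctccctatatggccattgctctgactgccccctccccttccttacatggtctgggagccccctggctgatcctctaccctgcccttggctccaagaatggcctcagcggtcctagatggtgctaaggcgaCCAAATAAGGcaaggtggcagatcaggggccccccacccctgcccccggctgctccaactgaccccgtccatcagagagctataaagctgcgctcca
Myl7 (chr11:5898733-5899032, minus strand): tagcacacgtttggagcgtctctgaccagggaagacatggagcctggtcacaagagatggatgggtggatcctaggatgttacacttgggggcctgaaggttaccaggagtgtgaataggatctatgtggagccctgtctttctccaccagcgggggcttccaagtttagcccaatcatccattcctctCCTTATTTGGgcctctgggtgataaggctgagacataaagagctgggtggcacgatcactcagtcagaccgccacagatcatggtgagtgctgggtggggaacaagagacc
Myl9 (chr2:156775214-156775513, plus strand): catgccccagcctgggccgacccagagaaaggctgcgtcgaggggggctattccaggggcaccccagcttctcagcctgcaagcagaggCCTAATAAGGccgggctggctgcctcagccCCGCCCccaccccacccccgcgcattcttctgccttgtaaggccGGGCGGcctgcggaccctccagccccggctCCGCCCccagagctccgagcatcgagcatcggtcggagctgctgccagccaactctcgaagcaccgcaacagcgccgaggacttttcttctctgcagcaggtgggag
Acta2 (chr19:34255324-34255623, minus strand): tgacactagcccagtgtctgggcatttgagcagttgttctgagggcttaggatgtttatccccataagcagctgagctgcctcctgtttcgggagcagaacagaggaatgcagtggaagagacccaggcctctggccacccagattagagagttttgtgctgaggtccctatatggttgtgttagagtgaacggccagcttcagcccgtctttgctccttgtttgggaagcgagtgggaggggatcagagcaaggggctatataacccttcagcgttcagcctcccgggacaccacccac
Cnn1 (chr9:22099003-22099302, plus strand): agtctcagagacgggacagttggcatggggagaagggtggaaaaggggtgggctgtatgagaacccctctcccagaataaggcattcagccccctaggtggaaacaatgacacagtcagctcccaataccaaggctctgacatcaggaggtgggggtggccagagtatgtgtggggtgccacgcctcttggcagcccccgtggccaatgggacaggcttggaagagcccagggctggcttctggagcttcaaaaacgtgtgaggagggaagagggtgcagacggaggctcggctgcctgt

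The Actc1 match covers the bases from -47 to -38 relative to the start, the Myl7 match those from -61 to -52, and the Myl9 match those from -161 to -152. The GC boxes of Myl9 start at -131, -87 and -57. A match is a run of letters in a window and no measurement of binding.

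All levels below are normalised log2 intensities, and a step of 1 is a 2-fold change. Levels of different genes are not compared, since every probe has its own brightness. The Sp1 probe itself read 12.25 to 12.54 on average in the 4 Sp1+/+ populations and 9.12 to 10.27 in the Sp1-/- populations, a difference of -2.28 to -3.28 in the matched population. The sort markers Itga2b, Tek and Kit went with the gates in both genotypes, and Kdr did not. Itga2b, which encodes CD41, read 7.37 to 8.3 in Flk1+ cells, 10.6 to 11.43 in HE1 and 11.41 to 12.68 in HE2 and progenitors. Tek, which encodes Tie2, read 11.65 to 12.5 in HE1 and 7.62 to 9.62 in progenitors. Kit read 9.86 to 11.04 in Flk1+ cells and 11.43 to 13.27 in the later populations. Kdr, which encodes Flk1, read 13.87 to 14.38 in Flk1+ cells and 13.56 to 15.37 in the later populations.

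In Sp1-/- cells 8 of the 10 genes had their highest mean in HE1 and 8 had their lowest in progenitors, whereas in Sp1+/+ cells 5 were highest in HE1, 3 were highest in progenitors and only Nkx2-5 was lowest there. Acta2 encodes the smooth muscle alpha actin. In Sp1+/+ cells Acta2 read 8.47 and 9.07 in Flk1+ cells, 17.6 and 16.79 in HE1, 16.57 and 15.09 in HE2, then 16.81 and 16.24 in progenitors. Its Sp1-/- readings were 9.85 and 9.59 in Flk1+ cells, 17.84 and 17.12 in HE1, 16.09 and 15.36 in HE2, then 12.85 and 12.77 in progenitors. The gene thus stood 8.43 higher in HE1 than in Flk1+ cells of Sp1+/+ and 7.76 higher in those of Sp1-/-. Sp1+/+ progenitors stayed within the range of HE1 and HE2, whereas the Sp1-/- progenitors lay below both Sp1-/- stages of hemogenic endothelium.

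Tagln (transgelin, also SM22 alpha), an actin-binding protein of smooth muscle, had the same course. Its Sp1+/+ readings were 11.55 and 11.81 in Flk1+ cells, 16.71 and 16.38 in HE1, 15.78 and 14.8 in HE2, then 15.94 and 15.65 in progenitors. Sp1-/- cells gave 12.01 and 11.82, 17.09 and 16.53, 15.34 and 14.67, and 12.23 and 12.03 in the same order. Across the 16 arrays Tagln and Acta2 had a Pearson correlation of 0.96, as a description over arrays that share populations and slides. In Sp1-/- progenitors Tagln was back to within 0.21 of its level in Sp1-/- Flk1+ cells, while in Sp1+/+ progenitors it stayed 4.12 above the level in Sp1+/+ Flk1+ cells.

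Cnn1 encodes calponin 1, which binds actin in smooth muscle. In Sp1+/+ cells it was nearly level, with 11.73 and 11.32 in Flk1+ cells, 12.29 and 11.54 in HE1, 12 and 10.51 in HE2, then 12.09 and 11.89 in progenitors, and all neighbours in this order overlapped. The corresponding Sp1-/- readings were 11.22 and 11.17, 12.5 and 11.37, 11.05 and 10.39, and 8.07 and 7.99. The Sp1-/- progenitors stood apart from every other group of the series at this probe.

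Actc1, the cardiac alpha actin, differed between the genotypes from the first population on. Sp1+/+ cells gave 9.48 and 8.39 in Flk1+ cells, 11.17 and 9.33 in HE1, 10.69 and 8.94 in HE2, then 10.94 and 10.91 in progenitors. The Sp1-/- arrays gave 12.19 and 11.98, 14.23 and 12.72, 12.46 and 11.14, and 8.8 and 8.61. Progenitors had the highest mean of the 4 Sp1+/+ populations and the lowest of the 4 Sp1-/- populations. The 2 Sp1+/+ HE1 arrays lay far apart (SD 1.3, n = 2), and neighbours in the Sp1+/+ order overlapped throughout.

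**Figure D1:**
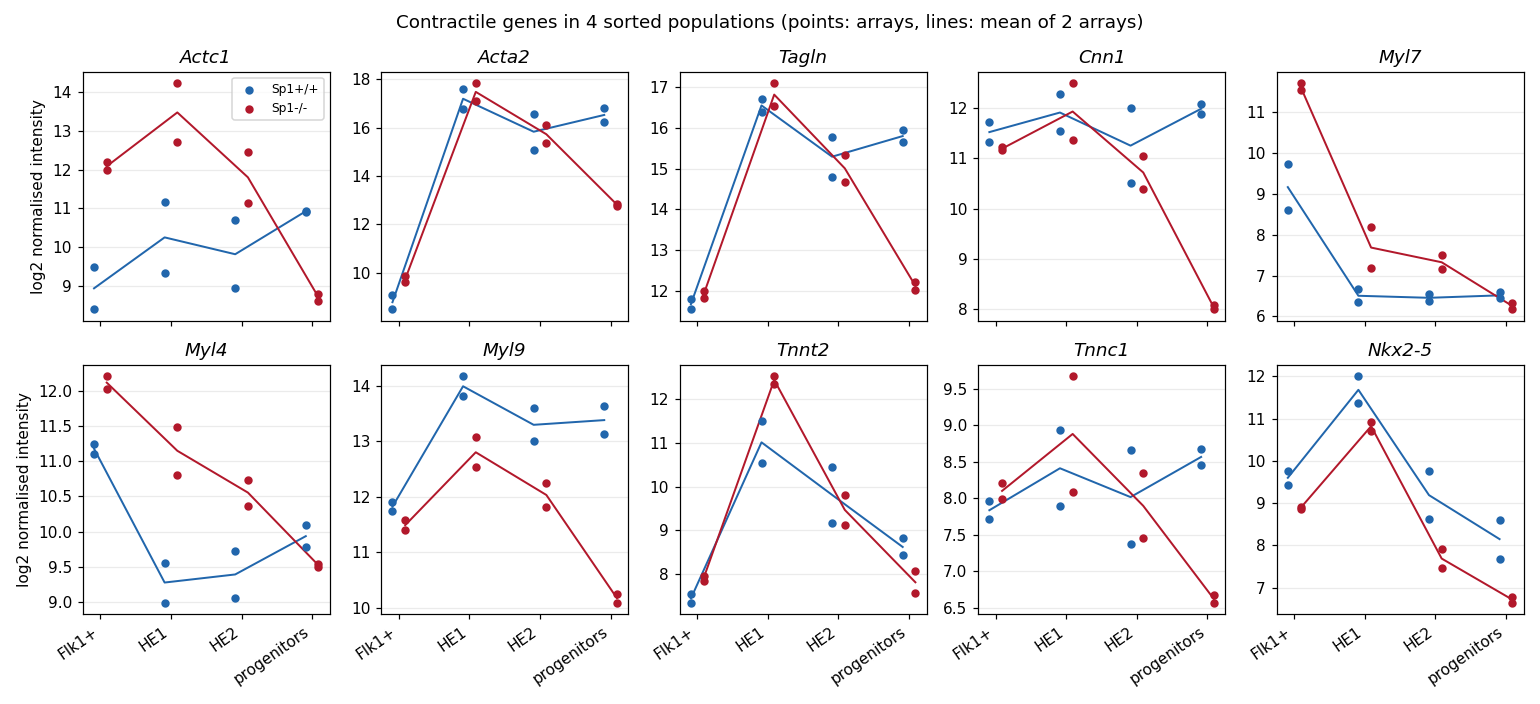
Normalised log2 intensity (vertical axis, own scale for each gene) of the 10 genes in Flk1+ cells, HE1, HE2 and progenitors (horizontal axis), with Sp1+/+ in blue and Sp1-/- in red; points are the 2 arrays of a group and lines join their means. In every panel both Sp1-/- progenitor arrays lie below both Sp1+/+ progenitor arrays, whereas Myl7 and Myl4 alone start highest in Flk1+ cells.

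Myl7 and Myl4, the regulatory and essential light chains of atrial myosin, ran the other way and were highest in Flk1+ cells of both genotypes. Myl7 in Sp1+/+ cells read 9.72 and 8.61 in Flk1+ cells and then 6.35 to 6.66 on all 6 later arrays, close to the lowest signals above background. Its Sp1-/- readings were 11.71 and 11.54 in Flk1+ cells, 8.18 and 7.19 in HE1, 7.5 and 7.15 in HE2, then 6.34 and 6.17 in progenitors. The probe was not well above background on 1 Sp1+/+ HE1 array and 1 Sp1-/- progenitor array.

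Myl4 in Sp1+/+ cells read 11.25 and 11.11 in Flk1+ cells, 9.56 and 8.99 in HE1, 9.73 and 9.05 in HE2, then 9.78 and 10.09 in progenitors. Sp1-/- cells gave 12.03 and 12.21, 11.49 and 10.81, 10.74 and 10.37, and 9.5 and 9.54. Its Sp1-/- levels stepped down from each population to the following one with no overlap between neighbours. Myl7 and Myl4 correlated at 0.90 over the 16 arrays, and Myl7 and Acta2 at -0.71.

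Myl9, the regulatory light chain of smooth muscle myosin, was lower in Sp1-/- cells in all 4 populations. The Sp1+/+ arrays gave 11.9 and 11.74 in Flk1+ cells, 14.17 and 13.81 in HE1, 13.59 and 13 in HE2, then 13.63 and 13.13 in progenitors. The corresponding Sp1-/- readings were 11.57 and 11.4, 13.07 and 12.53, 12.24 and 11.82, and 10.25 and 10.09. Its groups did not overlap between the genotypes in any population.

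Tnnt2, the cardiac troponin T that ties troponin to tropomyosin, peaked in HE1. Its Sp1+/+ readings were 7.34 and 7.53 in Flk1+ cells, 10.53 and 11.5 in HE1, 9.17 and 10.45 in HE2, then 8.81 and 8.42 in progenitors. The Sp1-/- arrays gave 7.96 and 7.84, 12.53 and 12.36, 9.8 and 9.13, and 8.06 and 7.55. The peak stood 3.58 above Flk1+ cells in Sp1+/+ and 4.54 above them in Sp1-/-, and in Sp1-/- cells the progenitors overlapped with Flk1+ cells again.

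Tnnc1, the troponin C of cardiac and slow muscle that binds calcium, read between 6.57 and 9.67. Sp1+/+ cells gave 7.71 and 7.96 in Flk1+ cells, 8.93 and 7.89 in HE1, 8.66 and 7.37 in HE2, then 8.68 and 8.45 in progenitors. Its Sp1-/- readings were 7.99 and 8.21, 9.67 and 8.09, 8.34 and 7.45, and 6.57 and 6.67. Its only group apart from its neighbours in the order of levels was the Sp1-/- progenitors.

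Nkx2-5, a homeodomain factor of the early heart, is the regulator among the 10 genes. The Sp1+/+ arrays gave 9.43 and 9.77 in Flk1+ cells, 11.36 and 12 in HE1, 8.62 and 9.76 in HE2, then 8.61 and 7.69 in progenitors. Sp1-/- cells gave 8.9 and 8.87, 10.93 and 10.71, 7.91 and 7.47, and 6.79 and 6.65. It peaked in HE1 and was lowest in progenitors in both genotypes, with lower readings in every Sp1-/- population and no overlap.

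The difference between Sp1-/- and Sp1+/+ cells turned from positive to negative between Flk1+ cells and progenitors for 7 of the 10 genes. In Flk1+ cells Actc1 was 3.15 higher in Sp1-/- (8.88-fold) and Myl7 2.46 higher (5.5-fold), the only genes of the 10 at least 2-fold higher there. Acta2 was 0.95 higher, Myl4 0.94, Tnnt2 0.46, Tnnc1 0.27 and Tagln 0.23. Nkx2-5 was 0.71 lower, Myl9 0.34 lower and Cnn1 0.33 lower in Sp1-/- Flk1+ cells, each with no overlap between the arrays.

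In progenitors all 10 genes were lower in Sp1-/- on both arrays, and 7 of them were at least 2-fold lower. The difference was -3.96 for Cnn1 (15.6-fold lower), -3.71 for Acta2 (13.1-fold), -3.67 for Tagln (12.7-fold) and -3.21 for Myl9 (9.25-fold). It was -2.22 for Actc1, -1.94 for Tnnc1, -1.43 for Nkx2-5, -0.81 for Tnnt2, -0.41 for Myl4 and -0.26 for Myl7. From HE2 to progenitors, 9 of the 10 Sp1-/- means were lower by 1.04 to 3.1 and that of Nkx2-5 by 0.97, whereas 8 of the 10 Sp1+/+ means were 0.06 to 1.11 higher. The 4 genes of the smooth muscle apparatus thus had the largest differences in progenitors, and Actc1 and Myl7 had the largest in Flk1+ cells.

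Among all genes, both Sp1-/- arrays lay above both Sp1+/+ arrays in Flk1+ cells for 27.8%, below them in progenitors for 28.4%, and both at once for 5.58%. These shares stand beside the counts of 7, 10 and 7 of the 10 genes as a background only, since the genes were picked on these values. The choice had no minimum size, and its smallest differences were 1.18-fold for Tagln in Flk1+ cells and 1.2-fold for Myl7 in progenitors.

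**Figure D2:**
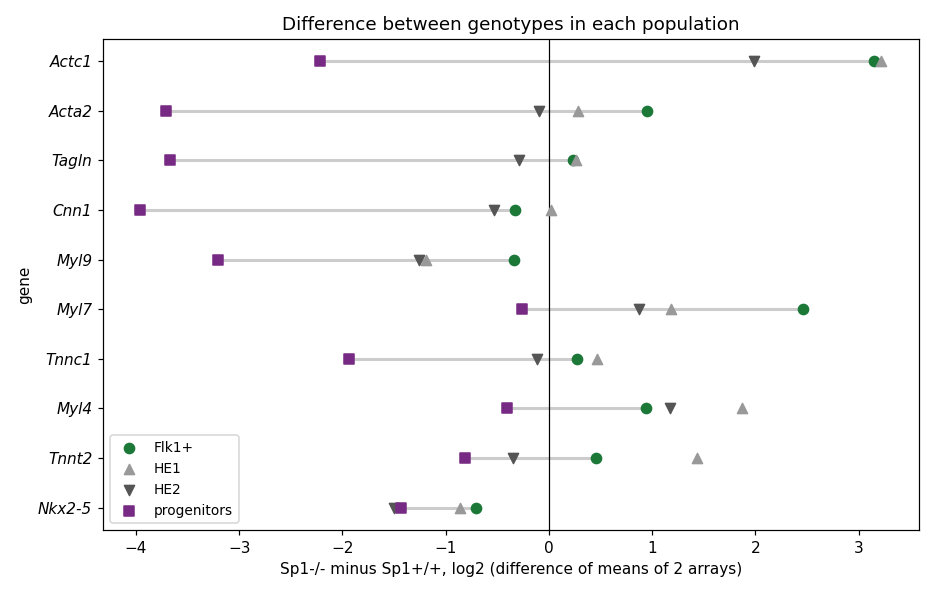
Sp1-/- minus Sp1+/+ difference of mean log2 intensity (horizontal axis) for each of the 10 genes (vertical axis, ordered by the gap between progenitors and Flk1+ cells) in Flk1+ cells (circles), HE1 and HE2 (triangles) and progenitors (squares), with a grey line from Flk1+ cells to progenitors. All squares lie left of 0 and 7 of the 10 circles right of it, from 0.23 for Tagln to 3.15 for Actc1.

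Markers of other cell types moved with the contractile genes in progenitors. Averaged over 12 markers of mesenchyme and fibroblasts, the log2 level was 9.04 to 9.46 on the Sp1+/+ progenitor arrays and 7.65 to 7.72 on the Sp1-/- arrays, where 3 of the 12 were not well above background. Of these 12, 6 fell in Sp1-/- progenitors, where 2.59% of all genes were called lower, among them the collagen genes Col1a1 (-4.7, SE 0.84, limma adjusted p = 0.00354) and Col1a2 (-3.32, SE 0.47, limma adjusted p = 0.000857). Postn, also among these 6, lost its call with the processed signal scaled to the 75th percentile (-3.19). It also lost it without Sp1+/+ progenitor replicate 1 (-1.97), either Sp1-/- progenitor replicate (-2.5 and -2.65) or any Flk1+ array (-2.58). Dcn was higher on both Sp1-/- arrays (7.37 and 7.54 against 7.25 and 7.08), without a call. Of 13 endothelial markers 4 fell (against the same 2.59%), Cdh5, Esam, Eng and Egfl7, and the mean level was 9.85 to 10.95 in Sp1+/+ and 9.04 to 9.27 in Sp1-/-. Without Sp1+/+ progenitor replicate 1 or either Sp1-/- replicate, Egfl7 no longer passed. The mean of 14 hematopoietic markers was 13.19 to 13.59 in Sp1+/+ and 13.83 to 13.94 in Sp1-/- progenitors, with Ptprc and Klf1 higher and the sort marker Kit lower by the test. The part of these cell types in the difference of the contractile genes was not tested, and in these bulk samples fewer cells of a type and less RNA per cell cannot be told apart.

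The endodermal genes Cer1 and Foxa2 rose in Sp1-/- Flk1+ cells, by 3.51 (SE 0.23) and 2.68 (SE 0.28), with limma adjusted p = 1.79e-05 and 0.000378, where 0.778% of all genes were called higher. Cer1 was not well above background on 1 of the 2 Sp1+/+ arrays, and its difference ran from 3.05 to 6.85 over the alternatives. Cer1 and Foxa2 were the only 2 of 8 endodermal markers called (25% of the list), and the median difference of the list was 0.35. The mean over the 8 markers, which holds these 2 genes, was 7.34 to 7.42 on the Sp1+/+ Flk1+ arrays and 8.26 to 8.46 on the Sp1-/- arrays. The means over 9 markers of early mesoderm overlapped between the genotypes, at 12.26 to 12.87 in Sp1+/+ and 12.51 to 12.61 in Sp1-/-. Single markers went both ways, and 1 of the 9 was called higher. Eomes was higher in Sp1-/- (15.45 and 15.31 against 14.67 and 13.65). Hand1 (13.03 and 13.36 against 14.01 and 14.15), Foxf1 and Etv2 were lower, all with no overlap between arrays. The part of Cer1, Foxa2 and these other markers in the Actc1 and Myl7 difference was not tested.

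**Figure D3:**
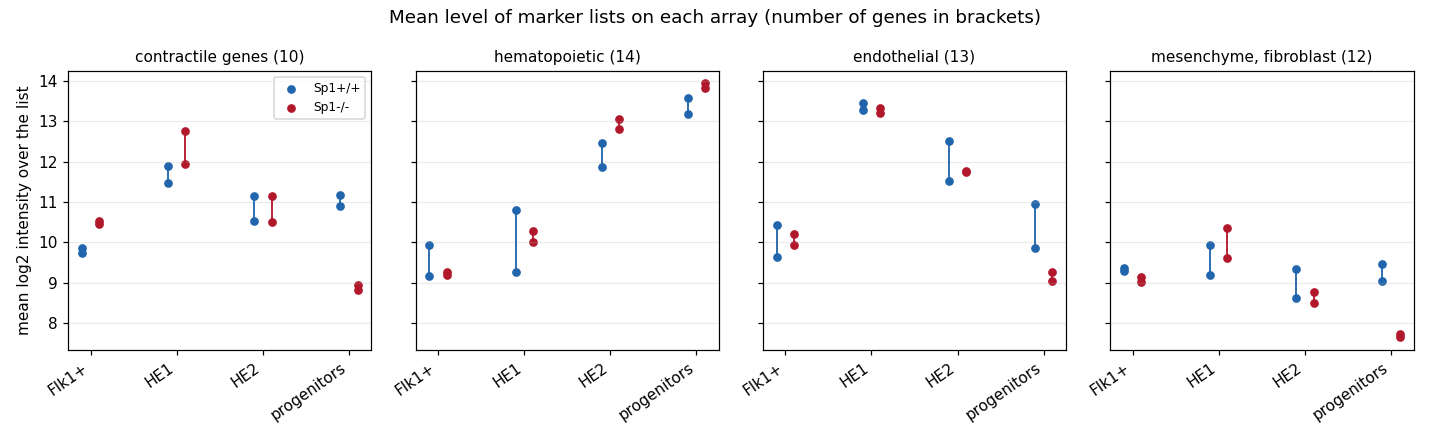
Mean normalised log2 intensity (vertical axis) of the 10 contractile genes, 14 hematopoietic, 13 endothelial and 12 mesenchymal or fibroblast markers in the 4 populations (horizontal axis), with 1 point per array, Sp1+/+ in blue and Sp1-/- in red. In progenitors the contractile and mesenchymal means of Sp1-/- lie below those of Sp1+/+, and the hematopoietic means lie above.

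The rule of the choice did not use HE1 and HE2, and the genotypes were compared there by a limma fit over all genes. The genes were, however, chosen with earlier results of these data known. The fit also estimated the spread over all 8 groups, so the Flk1+ and progenitor arrays behind the choice entered the standard errors. For Actc1 the SD was 1.3 in Sp1+/+ and 1.07 in Sp1-/- HE1, against 0.02 and 0.13 in progenitors. Calls needed a p of at most 0.01 before adjustment together with a 2-fold difference, with Benjamini-Hochberg adjusted values over all 37149 genes tested. In HE1, 4 of the 10 genes rose in Sp1-/- and 1 fell, where 2.11% of all genes were called, 0.972% higher and 1.14% lower. Among the 30467 genes well above background on both arrays of some group, 2.57% were called. The median difference of the 10 genes was 0.38, against 0.01 for all genes.

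Actc1 rose by 3.22 (SE 0.74, limma adjusted p = 0.0211), Myl4 by 1.87 (SE 0.27, limma adjusted p = 0.00234), Tnnt2 by 1.43 (SE 0.41, limma adjusted p = 0.0498) and Myl7 by 1.18 (SE 0.35, limma adjusted p = 0.0565). For Myl7, whose probe was not well above background on 1 Sp1+/+ HE1 array, the difference was 2.81 with the processed signal scaled to the 75th percentile. Myl9, of smooth muscle, fell by 1.19 (SE 0.25, limma adjusted p = 0.0149). The other cardiac genes of the 10 were not called, with Nkx2-5 at -0.86 (SE 0.37, limma adjusted p = 0.184), lower on both Sp1-/- arrays, and Tnnc1 at 0.47 with overlapping arrays. On the lists of further cardiac genes, 1 of 24 regulators rose in HE1, and 1 of 24 on the sarcomere list, the troponin Tnni1. Of 18 cardiac calcium and hormone genes 0 rose and 1 fell. The smooth muscle genes Acta2, Tagln and Cnn1 differed by 0.28, 0.26 and 0.02 in HE1, all with overlapping arrays, although they had the largest differences in progenitors.

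Some markers of other cells differed in HE1 as well. Of 14 hematopoietic markers 2 rose in Sp1-/- HE1, Runx1 by 1.54 and Gfi1b by 1.09, with list means of 9.26 to 10.81 in Sp1+/+ and 10 to 10.28 in Sp1-/-. Of 12 mesenchymal markers 2 rose, Dcn by 1.6 and Lum by 1.57, and Twist1 fell by 1.11, with list means of 9.18 to 9.94 and 9.61 to 10.35. Lum was not well above background on 1 Sp1+/+ HE1 array. These are 14.3% and 25% of the lists, against 2.11% of all genes, and their part in the differences of the contractile genes was not tested.

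A fit on only the HE1 arrays gave 2 calls against 5 in the main fit, and several of the HE1 calls rested on single arrays. The Actc1 difference was 2.31 without Sp1+/+ HE1 replicate 2 and 2.47 without Sp1-/- HE1 replicate 1, and it was not called in either case. Myl7 lost its call without any of Sp1+/+ HE1 replicate 1 (1.33), Sp1+/+ HE1 replicate 2 (1.03) or Sp1-/- HE1 replicate 1 (0.69). Tnnt2 lost it without Sp1+/+ HE1 replicate 1 (0.95) or either Sp1-/- HE1 replicate (1.34 and 1.51), and Myl9 without Sp1-/- HE1 replicate 2 (-0.92). Myl4 was the only one of the 5 that was called whichever array was left out. The number called ranged from 2 to 5, with 2 when Sp1-/- HE1 replicate 1 was left out and 3 without either Sp1+/+ HE1 replicate or without Sp1-/- HE1 replicate 2.

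In HE2, 1 of the 10 genes rose in Sp1-/- and 2 fell, where 1.94% of all genes were called, 0.773% higher and 1.17% lower. Myl4 rose by 1.17 (SE 0.27, limma adjusted p = 0.0305). Myl9 fell by 1.26 (SE 0.25, limma adjusted p = 0.0131) and Nkx2-5 fell by 1.5 (SE 0.37, limma adjusted p = 0.0397). Actc1 was 1.99 higher with no overlap between arrays, but it was not called (SE 0.74, limma adjusted p = 0.172). Actc1 was called without Sp1+/+ HE2 replicate 1 (2.86), and also in a fit on all arrays with a term for the replicate number (1.99). The median difference of the 10 genes was -0.2, against 0.015 for all genes.

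Of the HE2 calls, Myl4 was lost without Sp1+/+ HE2 replicate 2 (0.83) or Sp1-/- HE2 replicate 1 (0.98), Myl9 without Sp1+/+ HE2 replicate 1 (-0.97), and Nkx2-5 without Sp1+/+ HE2 replicate 2 (-0.93) or Sp1-/- HE2 replicate 2 (-1.28). Only 1 gene was called without Sp1+/+ HE2 replicate 2. The mean of the 14 hematopoietic markers was higher in Sp1-/- HE2, at 11.87 to 12.47 in Sp1+/+ and 12.82 to 13.05 in Sp1-/-. Only 1 of the 14 was called, Ptprc (1.49), which is 7.14% of the list against 1.94% of all genes. Kit (-0.12), Tal1 (-0.33), Lyl1 (-0.17) and Myb (-0.26) were lower, and the remaining markers were higher without a call. The part of these markers in the differences of the contractile genes was not tested. Endothelial means overlapped in HE1 (13.28 to 13.45 and 13.2 to 13.34) and in HE2 (11.52 to 12.51 and 11.74 to 11.78), with 0 of the 13 markers called in either.

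From HE1 to HE2, every gene of the 10 that passed the test fell. In Sp1+/+ cells 2 of the 10 fell, where 2.23% of all genes were called lower: Nkx2-5 (-2.49, SE 0.37, limma adjusted p = 0.00197) and Tagln (-1.26, SE 0.31, limma adjusted p = 0.0262). In Sp1-/- cells 4 fell, where 3.52% of all genes were called lower. They were Nkx2-5 (-3.13, SE 0.37, limma adjusted p = 0.000232), Tnnt2 (-2.98, SE 0.41, limma adjusted p = 0.000504), Tagln (-1.8, SE 0.31, limma adjusted p = 0.00223) and Acta2 (-1.75, SE 0.47, limma adjusted p = 0.0226). The median change of the 10 genes was -0.68 in Sp1+/+ and -1.44 in Sp1-/-, against 0.015 and 0.01 for all genes. This fit did not pair arrays by replicate number. With a term for that number, 3 genes were called in Sp1+/+ and 6 in Sp1-/-. The added genes were Acta2 in Sp1+/+ (-1.36), and Actc1 (-1.68) and Cnn1 (-1.21) in Sp1-/-.

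The Tagln call in Sp1+/+ was lost without Sp1+/+ HE1 replicate 1 (-1.09) or Sp1+/+ HE2 replicate 2 (-0.77), and the Acta2 call in Sp1-/- without Sp1-/- HE1 replicate 1 or Sp1-/- HE2 replicate 2 (-1.39 in both cases). Leaving out Sp1+/+ HE2 replicate 1 raised the Sp1+/+ count to 4, and leaving out Sp1-/- HE1 replicate 2 raised the Sp1-/- count to 7. The same step took endothelial means down from 13.28 to 13.45 in HE1 to 11.52 to 12.51 in HE2 in Sp1+/+ cells, and hematopoietic means up from 9.26 to 10.81 to 11.87 to 12.47. In Sp1-/- cells endothelial means went from 13.2 to 13.34 down to 11.74 to 11.78, and hematopoietic means from 10 to 10.28 up to 12.82 to 13.05. Of the 12 mesenchymal markers 2 fell in Sp1+/+ (median of the list -0.61) and 7 in Sp1-/- (median -1.38). Whether these shifts bear on the contractile genes was not tested.

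The step from HE1 to HE2 was not shown to differ between the genotypes. In the limma interaction 0 of the 10 genes were called and 1 had an unadjusted p under 0.05, where 0.740% of all genes were called. That gene was Tnnt2, whose step in Sp1-/- minus that in Sp1+/+ was -1.77 (SE 0.58, limma adjusted p = 0.446). It passed the threshold without Sp1+/+ HE1 replicate 2 (-2.26), without Sp1+/+ HE2 replicate 1 (-2.42) and without Sp1-/- HE2 replicate 1 (-2.11).

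**Figure D4:**
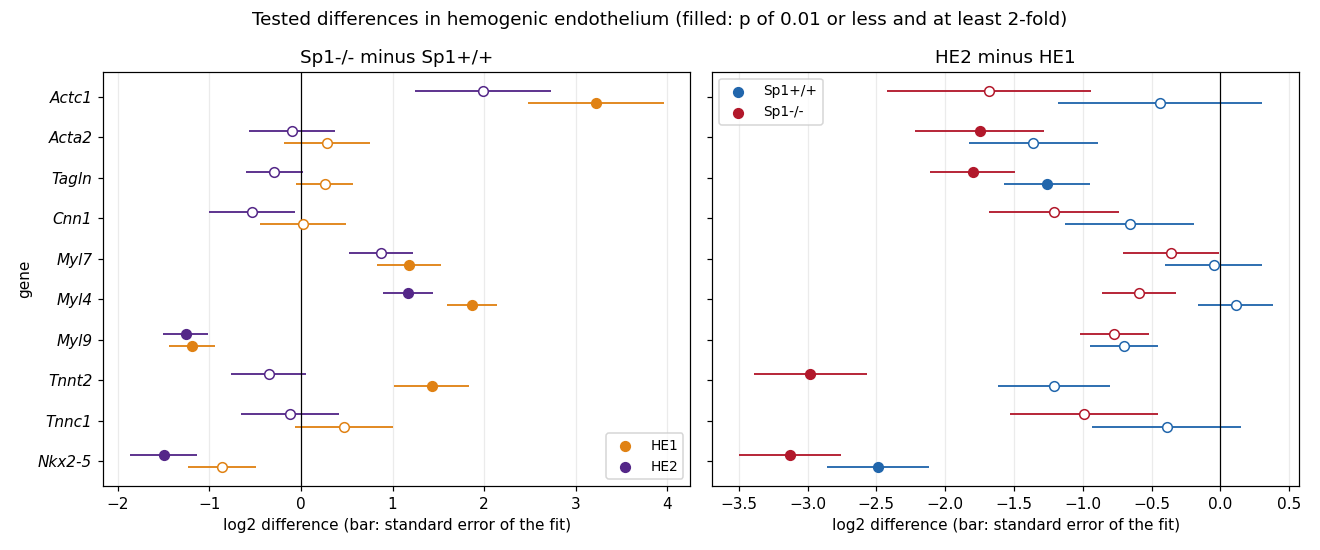
Log2 differences (horizontal axes) of the 10 genes (vertical axis) with the standard error of the limma fit as bars, for Sp1-/- minus Sp1+/+ in HE1 (orange) and HE2 (purple) on the left and HE2 minus HE1 in Sp1+/+ (blue) and Sp1-/- (red) on the right; filled points passed p of 0.01 or less and 2-fold. Actc1, Myl4, Tnnt2 and Myl7 are filled right of 0 in HE1, and all filled points on the right panel lie below 0.

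The other genes of muscle were taken from lists of cardiac, smooth muscle, skeletal and non-muscle contractile genes, cardiac regulators and targets of SRF, its cofactor MRTF and TGFb, of which 141 were tested. These lists too were drawn up with earlier results of these data known. In Flk1+ cells 6 of the 141 rose and 5 fell in Sp1-/-, where 1.65% of all genes were called, 0.778% higher and 0.872% lower. In progenitors 6 rose and 34 fell, together 28.4% of the list, where 4.11% of all genes were called, 1.51% higher and 2.59% lower. Among genes well above background on both arrays of some group, the share called in progenitors was 31.2% of 128 muscle genes and 5.01% of all. The medians over the 141 genes were 0.07 in Flk1+ cells and -0.15 in progenitors, against 0.01 and 0.02 for all genes.

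The muscle genes that rose most in Sp1-/- Flk1+ cells were Egr1, an early response factor (1.67, SE 0.22, limma adjusted p = 0.00145), Ldb3, a protein of the Z-disc (1.59, SE 0.51), the mesodermal factor Mesp2 (1.54, SE 0.42), the cardiac T-box factor Tbx5 (1.54, SE 0.15) and the integrin Itga8 (1.33, SE 0.42). Adjusted p from limma was 0.0924 for Ldb3, 0.0905 for Itga8, 0.0539 for Mesp2 and 0.000194 for Tbx5. Without Sp1+/+ Flk1+ replicate 2 the differences of Ldb3, Mesp2 and Itga8 were 0.88, 0.67 and 0.59, and these 3 genes were not called. They were not called without Sp1-/- Flk1+ replicate 1 either (1.73, 1.24 and 1.07). Ldb3 and Itga8 also lost their calls when any array of HE2 or progenitors was left out, although their differences hardly moved. Itga8 was not called with the background offset of 16 stated in the Methods (1.43), nor without background correction (1.39). With the processed signal scaled to the 75th percentile, Mesp2 (1.66) and Itga8 (1.46) were not called.

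The genes that fell most in Sp1-/- Flk1+ cells were the small heat shock protein Hspb1 (-2.09, SE 0.34, limma adjusted p = 0.00431), the beta tropomyosin Tpm2 (-1.57, SE 0.26, limma adjusted p = 0.00511), the intermediate filament protein desmin, Des (-1.26, SE 0.11, limma adjusted p = 0.000127), Tgfb2 (-1.25, SE 0.28, limma adjusted p = 0.0224) and Myh6, the alpha myosin heavy chain of the atrium (-1.20, SE 0.28, limma adjusted p = 0.026). Tgfb2 was not called without Sp1-/- Flk1+ replicate 1 (-1.05), nor Myh6 without Sp1-/- Flk1+ replicate 2 (-1.10). With the mean over the probes of a gene, Ldb3 (0.73) and Myh6 (-0.65) were not called, nor were they with the processed signal scaled to the 75th percentile (1.45 and -1.57). Of the 24 cardiac sarcomere genes 2 rose in Flk1+ cells and 2 fell, counting Ldb3 and Myh6.

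In progenitors the fall was broadest among targets of SRF, MRTF and TGFb, of which 12 of 19 fell and 1 rose (median -1.28), and among smooth muscle contractile genes, of which 11 of 25 fell and none rose (median -0.8). Of 24 cardiac regulators 4 fell, Hand1, Tbx3, Tbx20 and Gata6, and of 18 cardiac calcium and hormone genes 3 fell and 1 rose. Of 24 genes on the cardiac sarcomere list 1 fell and 3 rose, Tnni1, Tnnt1 and Mybpc3. The list counts Tnni1 and Tnnt1, whose products are named slow skeletal troponins, as cardiac genes. Of 17 skeletal muscle genes 1 rose and 2 fell, and of 14 non-muscle actomyosin genes 1 fell. The largest falls were those of Hspb1 (-5.52, SE 0.34), the matricellular gene Ccn2 (-4.31, SE 0.31), the cardiac factor Hand1 (-3.77, SE 0.49), Tpm2 (-3.73, SE 0.26) and Tgfb2 (-3.41, SE 0.28), with limma adjusted p between 4.92e-06 and 0.000491.

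Of the 6 muscle genes that rose in Sp1-/- progenitors, 3 encode troponins. Tnni1, the slow skeletal troponin I, rose by 2.49 (SE 0.17), from 10.02 to 12.52, with limma adjusted p = 9.18e-06. Tnni2 rose by 1.53 (SE 0.15) and Tnnt1 by 1.23 (SE 0.12), the fast troponin I and the slow troponin T of skeletal muscle, with limma adjusted p = 6.65e-05 and 7.11e-05. Tgfbi, which encodes a matrix protein, rose by 1.3 (SE 0.27) and Cox6a2, a muscle subunit of cytochrome oxidase, by 1.18 (SE 0.27), with limma adjusted p = 0.00796 and 0.0144. The sixth was Mybpc3, the cardiac myosin-binding protein C, which rose by 1.15 (SE 0.22, limma adjusted p = 0.00488). The troponins Tnnt2 and Tnnc1 among the 10 genes were 0.81 and 1.94 lower in the same cells.

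**Figure D5:**
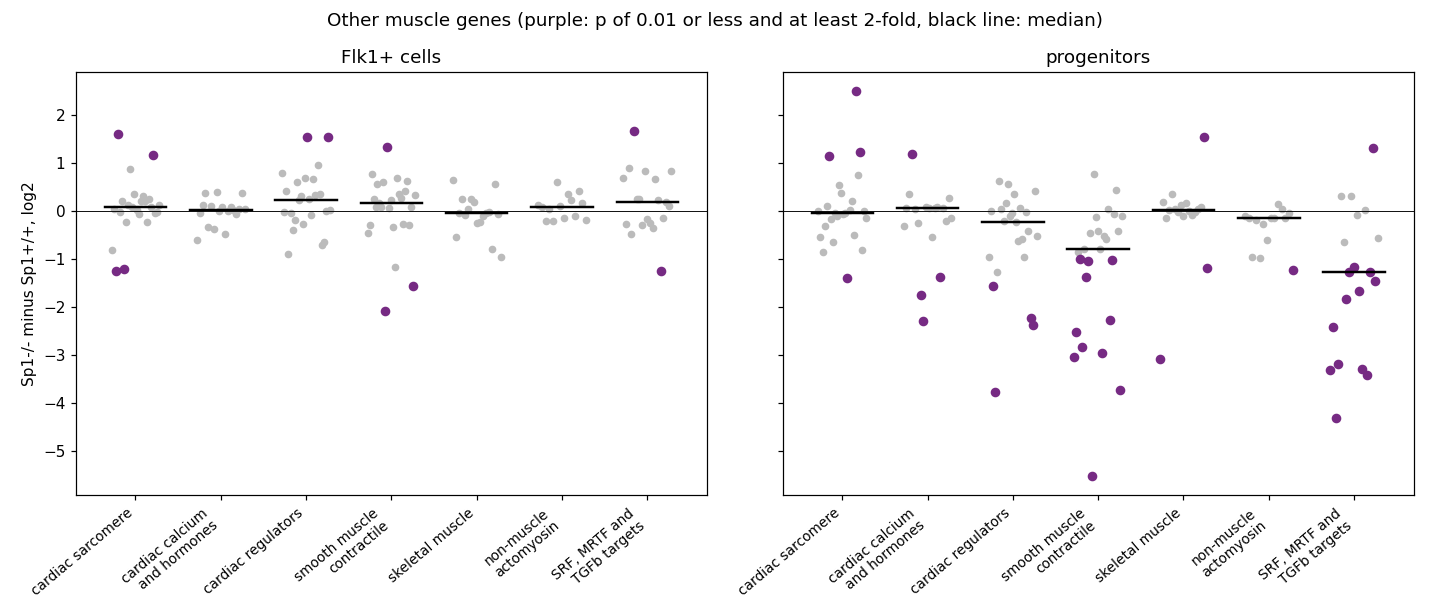
Sp1-/- minus Sp1+/+ log2 difference (vertical axis) of the 141 other muscle genes by list (horizontal axis) in Flk1+ cells and progenitors, with 1 point per gene, purple where it passed p of 0.01 or less and 2-fold, and a black line at the median; a gene on several lists appears in each. In progenitors the medians of the smooth muscle list and of the SRF, MRTF and TGFb list lie at -0.8 and -1.28.

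In HE1 2 of the 141 muscle genes rose and 4 fell, 4.26% of the list against 2.11% of all genes. In HE2 4 rose and 9 fell, 9.22% against 1.94%. Tpm2, Hspb1 and Ppp1r14a, an inhibitor of myosin phosphatase, fell in both, with Hspb1 at -1.88 (SE 0.34) for HE1 (limma adjusted p = 0.00716) and -2.22 (SE 0.34) for HE2 (limma adjusted p = 0.00299). Tnni1 rose in HE1 by 1.17 (SE 0.17, limma adjusted p = 0.00242), and Tnnt1 and Tnni2 rose in HE2 by 1.03 and 1.25 (limma adjusted p = 0.000462 and 0.000514). Mybpc3 and Myom1, both on the cardiac sarcomere list, also rose in HE2, by 1.37 and 1.07 (limma adjusted p = 0.00365 and 0.000844). From HE1 to HE2, 31 of the 141 fell in Sp1+/+ cells and 37 in Sp1-/- cells, where 2.23% and 3.52% of all genes were called lower. At the same step 3 rose in Sp1+/+ and 6 in Sp1-/-, with Myom1, Cox7a1 and Kcnj5 among them in both genotypes. Of all genes well above background on both arrays of some group, 1.31% and 2.54% were called higher.

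The profile of the 10 genes was summarised as the mean of their standardised values on each array, which ran from -1.3 and -1.22 in Sp1-/- progenitors to 0.64 and 1.25 in Sp1-/- HE1. Tnnc1 and Cnn1 followed the mean of the other 9 genes most closely (r = 0.877 and 0.823 over 16 arrays), and Myl7 and Myl4 hardly at all (r = -0.04 and 0.107). Among genes with a symbol, Rbms3 (0.963), Tent5b (0.951), Pakap (0.947), Folr1 (0.929), Zfand3 (0.923), Jph2 (0.92), Utrn (0.911) and Lama1 (0.911) had the profile most like it by Pearson correlation over the 16 arrays. Lama1, the alpha 1 chain of laminin, averaged 12.88 in Sp1-/- HE1 and 7.54 in Sp1-/- progenitors, against 11.32 and 10.51 in Sp1+/+ cells. Jph2, junctophilin of cardiac muscle, spanned only 6.49 to 7.06, so that a high correlation went with a small range.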

How the data were processed

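RNA from 16 samples, 8 groups of 2, was labelled with Cy3 and hybridised to one-color Agilent mouse arrays of 62976 spots. The authors deposited scanner intensities (Agilent Feature Extraction 10.7.1.1 in the submitters' processing notes, 10.7.3.1 in the file headers) and a table of log2 values. The Methods state limma normexp background correction with an offset of 16 and quantile normalization. The deposited log2 values equalled normexp with an offset of 50 from the median intensities to within 0.0258, against up to 1.63 with an offset of 16, and were used here. A higher offset shrinks differences of dim genes.

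Control spots were left out, outlier spots (95 to 182 per array) set to missing and spots of a probe averaged. Of 37932 target names, 20865 matched a RefSeq accession and 12 a symbol of GRCm38.p6, and 17055 kept their name. The brightest probe stood for a gene, and genes reaching log2 6 on at least 1 array were kept (37149 of 37203, since the floor of this scale is 5.64). Between 67.0% and 77.1% of spots per array were well above background and none was saturated. With 2 arrays a group, their number limits the precision.

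One limma fit (R 4.3.3, limma 3.58.1) with a mean for each of the 8 groups and 8 residual degrees of freedom gave the contrasts, called at p of 0.01 or less and at least 2-fold, with Benjamini-Hochberg values over all genes. It was tested on simulated data. Named are the 10 genes, Sp1, the 5 called muscle genes that rose most and the 5 that fell most in Flk1+ cells and in progenitors, and the 8 genes most like the mean profile. Other genes named were chosen with their values known. The 10 genes and the lists were chosen with earlier results of these data known. Alternatives changed the background correction, scaling, filter, probe rule, replicate block, arrays in the fit, threshold and test, and left out each array in turn. Promoter windows are RefSeq sequences of GRCm38.p6.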

Additional observations from a re-analysis of the deposited data

Results flagged for a closer look

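For 7 genes, both Sp1-/- arrays lay above both Sp1+/+ arrays in Flk1+ cells and below them in progenitors, opposite directions under the same contrast. The difference between the genotypes in progenitors minus that in Flk1+ cells was -5.37 for Actc1, -4.66 for Acta2, -3.9 for Tagln, -2.72 for Myl7, -2.21 for Tnnc1, -1.36 for Myl4 and -1.28 for Tnnt2 on the log2 scale. The change of sign was not tested, since the genes were chosen for it. Groups of 2 arrays are too small for a check for outlying arrays.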

How the results depend on the processing

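The 7 genes with opposite signs in Flk1+ cells and progenitors stayed 7 under all alternatives that could be run. Leaving out an array could not change this count, since the genotypes did not overlap in either population for any of the 10 genes. The genes were also chosen on these values, so the constant count is no support. Of 2275 single-gene values under alternatives, 72 lost a call, 18 gained one and 37 changed sign, all 37 of differences not called. Of these, 36 came from leaving out an array and 1 from the 75th percentile scaling (Tnnc1 in HE2, 0.08 against -0.12). Over the arrays left out, the HE1 difference ran from -0.12 to 0.69 for Acta2, -0.02 to 0.54 for Tagln, -0.55 to 0.58 for Cnn1 and -0.32 to 1.26 for Tnnc1. The HE2 difference ran from -0.84 to 0.64 for Acta2, -0.77 to 0.2 for Tagln, -1.28 to 0.21 for Cnn1, -0.99 to 0.29 for Tnnt2 and -0.77 to 0.52 for Tnnc1. The step from HE1 to HE2 ran from -1.35 to 0.48 for Actc1, -1.4 to 0.08 for Cnn1, -0.2 to 0.11 for Myl7, -0.22 to 0.45 for Myl4 and -1.04 to 0.25 for Tnnc1 in Sp1+/+, and from -0.86 to 0.13 for Myl7 in Sp1-/-. The interaction ran from -1.13 to 0.35 for Acta2, -1.3 to 0.19 for Cnn1, -0.81 to 0.18 for Myl7, -0.37 to 0.22 for Myl9 and -1.38 to 0.2 for Tnnc1. Scaling the processed signal to each array's 75th percentile moved the all-gene median in HE1 to 0.188, gave 1 call of the 10 genes for HE2 minus HE1 in Sp1+/+ (against 2), raised Myl7 in HE2 to 2.38 (called) and ended the calls of Tnnt2 in HE1 (1.24) and of Tagln for that step (-1.02). Under it 64.3% of the muscle genes called in Flk1+ cells were higher, against 54.5%. Limiting the fit to genes with both arrays of some group well above background gave 1 call in the interaction against 0. With the second brightest probe, which fewer genes have and none of the 10, the muscle genes called were 1 in Flk1+ cells against 11 and 7 in progenitors against 40. Fits on only the arrays of the comparison gave 2 calls in HE1 against 5 and 1 for HE2 minus HE1 in Sp1+/+ against 2. Run at these thresholds, the methods' t-test, which the Methods do not tie to the arrays, called 0 of the 10 genes in HE1, 0 in HE2, 0 for HE2 minus HE1 in Sp1+/+ and 1 in Sp1-/-, and 2 and 21 of the muscle genes in Flk1+ cells and progenitors, and after Benjamini-Hochberg adjustment 0 in each. Leaving out 1 array at a time gave 2 to 5 calls in HE1, 1 to 3 in HE2, 2 to 4 and 3 to 7 for HE2 minus HE1 in Sp1+/+ and Sp1-/-, 0 to 1 in the interaction, and 7 to 13 and 33 to 44 muscle genes in Flk1+ cells and progenitors. A lone array left in a group is assumed to vary like the other groups. Without Sp1-/- HE1 replicate 1, 1738 of all genes were called in HE1 against 783. The causes of these changes were not tested. Deviations of same-numbered arrays correlated above 0.1 in 11 of 28 pairs of groups (r from -0.173 to 0.503, highest between HE1 and HE2 of Sp1+/+), and for 8 of the 10 genes replicate 1 was the higher array in HE1 and HE2 of both genotypes. The labels do not say whether a shared number marks a shared differentiation, so the main fit did not pair the arrays, and these correlations do not settle it. A fit with the replicate block called 5 of the 10 genes in HE1, 4 in HE2, 3 and 6 for HE2 minus HE1 in Sp1+/+ and Sp1-/-, 0 in the interaction, and 10 and 40 muscle genes in Flk1+ cells and progenitors. It added calls for Actc1 in HE2 (1.99), Acta2 for the step in Sp1+/+ (-1.36), and Actc1 (-1.68) and Cnn1 (-1.21) for the step in Sp1-/-, and lost that of Ldb3 in Flk1+ cells (1.59). Readings of Myl7 near background bound its smallest differences least well.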
